A study of Mus musculus with 11 samples.

Results

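The genes described here mark fibroblasts, the connective tissue cells that make and remodel the extracellular matrix. The set holds 10 of the 19937 genes with a symbol of their own on the array, and each is read by 1 probe set whose annotation carries no other symbol. Its surface proteins are Cd34, Pdgfra, Pdgfrb and Thy1, its secreted matrix protein is Dpt, its calcium-binding protein is S100a4, its transcription factors are Twist1, Twist2 and Prrx1, and its cytoskeletal protein is Vim. The rule names the genes and uses no measured value, but it was written with earlier results of these data known. All 10 were brighter than a log2 value of 6 in every group and entered the tests.

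The study asked how loss of Pint, a long non-coding RNA that p53 induces, changes RNA levels next to loss of p53 itself. The cells were mouse embryonic fibroblasts (MEFs) of C57BL/6 x 129/SvJ background, p53LSL/LSL, in which a stop cassette keeps p53 silent until Cre removes it. Every group received AdenoCre, an adenovirus carrying Cre, at an MOI (viral particles per cell) of 5 for 24 h, so p53 had been restored in the controls as well. Every group was then transfected, and 24 h later it was given 150 nM doxorubicin, a DNA-damaging drug, for 12 h. The groups were p53 siRNA (3 arrays) against control siRNA (3 arrays), and Pint ASO, a pool of antisense oligonucleotides (ASOs), against a non-targeting control ASO (3 arrays against 2). These are whole cultures under drug, so the arrays hold no untreated cells and no cells sorted by type.

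Fibroblasts have no single defining gene and are recognised by combinations such as this one. Pdgfra and Pdgfrb are the receptor tyrosine kinases for platelet-derived growth factors (PDGFs), which drive the growth and migration of mesenchymal cells. Twist1 and Twist2 are basic helix-loop-helix factors that bind short E-box sequences together with E-proteins, and Prrx1 is a homeodomain factor of limb and craniofacial mesenchyme. Vim encodes vimentin, the intermediate filament of mesenchymal cells.

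Array medians lay between 7.31 and 7.38, so arrays differed little in their general brightness. Lncpint, the gene of Pint, read 8.60, 8.48 and 8.55 in the Pint ASO arrays, against 10.41 and 10.23 in the control ASO arrays. It fell by 1.78 on the log2 scale (SE 0.12, limma adjusted p = 2.94e-05). With p53 siRNA Lncpint read 9.13, 9.02 and 9.06, against 9.43, 9.88 and 9.53 with control siRNA, and fell by 0.54 (SE 0.11, adjusted p = 0.00673). The p53 gene itself was not analysed here. Of 49 marker genes for 8 other cell classes, 46 had a probe set of their own and 38 of these were above the filter on low values. The 8 that were not were Epcam of epithelium, Emcn of endothelium, Ptprc and Adgre1 of blood and macrophages, Myf5 and Myh3 of skeletal muscle, Adipoq of adipocytes and Ibsp of bone. Above it were 6 of 7 epithelial markers, 5 of 6 endothelial ones, Pecam1 and Cdh5 included, 4 of 6 for blood and macrophages, 4 of 6 for skeletal muscle, 4 of 5 for adipocytes, 3 of 4 for cartilage and bone, all 5 neural ones and all 7 of smooth muscle and pericytes. The filter, a log2 value of 6, lies below the array medians, so passing it does not show expression. Pecam1 (6.42 to 6.92) and Cdh5 (6.55 to 7.01) lay below those medians, while others such as Krt8 (7.93 to 8.44) lay above.

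Promoters of 5 members are printed below as a view of what lies before each start, namely Dpt, which has the largest change of the set, Cd34, which was called lower in both arms, Pdgfra, which was called in opposite directions, and the close relatives Twist1 and Twist2, of which Twist2 was called with Pint ASO and Twist1 was not. The sequences are those of RefSeq (GRCm38.p6), 5′ to 3′ along the gene. Each runs from 250 bases before the start used for that gene to 50 bases after it. For Pdgfra the whole window lies inside the annotated gene (chr5:75151322-75198206), so its start is not the outermost one. The same holds for Prrx1, on the minus strand, with its window at chr1:163313601-163313900 and the gene at chr1:163245119-163315145. Of the 10 genes, 8 were in that table, and the other two, Pdgfrb and Thy1, are named only. Capitals mark a TATA box (TATAAA), the CCAAT box, the GC box (GGGCGG) and a Twist-type E-box. The last was taken as CATATG. Its variant CAGATG was counted as well, and each motif was searched on both strands. Dpt lies at chr1:164796413-164796712, Cd34 at chr1:194938571-194938870, Pdgfra at chr5:75152001-75152300, Twist1 at chr12:33957421-33957720 and Twist2 at chr1:91801211-91801510, all on the plus strand.
Dpt: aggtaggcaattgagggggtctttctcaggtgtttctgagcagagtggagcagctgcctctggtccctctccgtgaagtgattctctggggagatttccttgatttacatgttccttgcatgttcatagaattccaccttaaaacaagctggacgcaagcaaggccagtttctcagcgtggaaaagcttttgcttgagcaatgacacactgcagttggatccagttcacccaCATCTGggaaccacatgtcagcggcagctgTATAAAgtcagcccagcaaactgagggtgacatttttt
Cd34: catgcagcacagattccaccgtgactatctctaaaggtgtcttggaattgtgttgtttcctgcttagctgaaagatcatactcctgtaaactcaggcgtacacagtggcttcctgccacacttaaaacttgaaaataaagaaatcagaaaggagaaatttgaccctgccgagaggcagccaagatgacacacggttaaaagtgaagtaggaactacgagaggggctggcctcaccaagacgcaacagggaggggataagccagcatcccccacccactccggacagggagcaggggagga
Pdgfra: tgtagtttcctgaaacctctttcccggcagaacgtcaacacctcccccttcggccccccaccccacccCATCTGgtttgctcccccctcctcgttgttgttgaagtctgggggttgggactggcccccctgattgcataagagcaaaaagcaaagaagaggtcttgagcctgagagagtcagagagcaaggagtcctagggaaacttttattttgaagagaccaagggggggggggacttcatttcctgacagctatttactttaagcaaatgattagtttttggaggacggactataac
Twist1: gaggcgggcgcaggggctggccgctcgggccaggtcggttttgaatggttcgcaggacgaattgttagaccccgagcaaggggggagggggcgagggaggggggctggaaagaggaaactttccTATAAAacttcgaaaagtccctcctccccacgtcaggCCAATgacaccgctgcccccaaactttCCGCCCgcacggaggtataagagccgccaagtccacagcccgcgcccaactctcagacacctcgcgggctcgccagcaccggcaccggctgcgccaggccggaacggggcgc
Twist2: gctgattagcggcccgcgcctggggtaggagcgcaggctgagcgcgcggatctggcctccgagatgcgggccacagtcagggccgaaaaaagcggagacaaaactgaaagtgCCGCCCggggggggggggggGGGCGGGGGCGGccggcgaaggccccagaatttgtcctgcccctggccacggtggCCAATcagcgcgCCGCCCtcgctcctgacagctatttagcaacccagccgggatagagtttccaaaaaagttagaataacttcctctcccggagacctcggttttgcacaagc

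The windows of the pair of Twist genes were rich in CG dinucleotides, with 27 in Twist1 and 25 in Twist2, against a median of 7 over all 32851 windows of this length. Twist2 held 4 GC boxes and Twist1 held 1, a motif found in 35.7% of all windows, and each held 1 CCAAT box, found in 37.4%. The other members had fewer CG dinucleotides, with 4 in Dpt, 7 in Cd34, 5 in Pdgfra, 2 in S100a4, 6 in Prrx1 and 11 in Vim. With positions counted from 1 at the start and below 0 before it, TATAAA began at position -31 in S100a4 and -32 in Vim, while in Twist1 it began at -126 and in Dpt at 13, and 13.6% of all windows hold it somewhere. A Twist-type E-box, which is one form of the general E-box CANNTG, was found in Dpt at position -18 and in Pdgfra at -182, and in 20.3% of all windows. Dpt held 7 general E-boxes, Pdgfra 2 and the other 6 windows none, where 72.3% of all windows hold at least 1. The p53 decamer motif was found in none of the 8 windows and in 8.36% of all windows. These are matches of letters within 1 short window per gene, which for Pdgfra and Prrx1 lies inside the annotated gene.

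After p53 knockdown the receptors rose, Cd34 fell, and the transcription factors and vimentin were not called. Pdgfra, Pdgfrb and S100a4 were higher, Cd34 was lower, and the other 6 genes were not called at an adjusted p under 0.05. Of all 26038 probe sets tested, 7.97% were called higher and 8.96% lower. Among the 9170 named probe sets at least as bright as the dimmest member, Dpt, these shares were 13.2% and 15.4%. The median change of the 10 genes was 0.08 on the log2 scale, and that of all probe sets was 0.01. The gene lists of the study used B (the log odds of a change) over 3. By that value 3 of the 10 genes were called beside 3.92% of all probe sets. The study's supplement also names log fold-change cut-offs set per contrast and a filter within each condition. Neither enters this count. The arrays of the 2 groups did not overlap for 8 of the 10 genes, a pattern seen for 35.7% of all probe sets. In whole cultures, fewer cells of a type and less RNA per cell cannot be told apart.

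After Pint knockdown most of the set fell. Dpt, Cd34, Pdgfra, Pdgfrb, Thy1, S100a4, Twist2 and Prrx1 were lower, none was higher, and Twist1 and Vim were not called. Of all probe sets tested, 10.7% were called lower and 8.49% higher, and among the named probe sets at least as bright as Dpt these shares were 20% and 16%. The median change of the 10 genes was -0.44 on the log2 scale, against 0.00 for all probe sets. With B over 3, 4 of the 10 genes were called beside 3.12% of all probe sets. For 9 of the 10 genes every Pint ASO array lay below both control ASO arrays, as for 22.2% of all probe sets. Groups were apart in either direction for 40.4% of all probe sets.

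**Figure D1:**
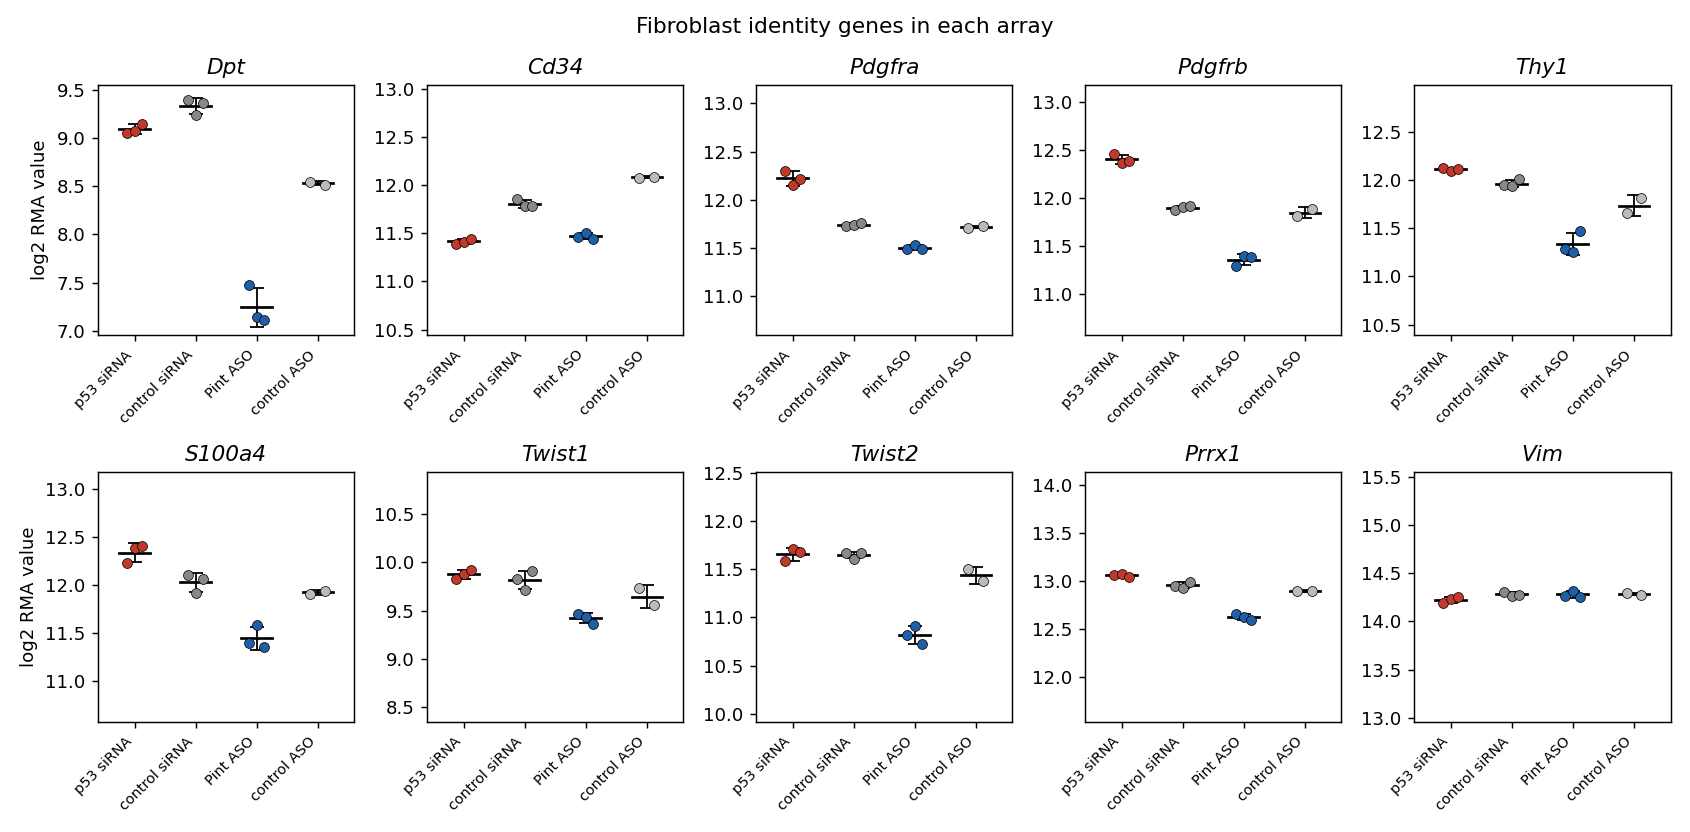
Log2 RMA value of each gene (vertical axis, the same span of log2 units in every panel) in each of the 11 arrays, with the groups in the order p53 siRNA, control siRNA, Pint ASO and control ASO; points are arrays, horizontal bars are group means and error bars are SD. The Pint ASO arrays are the lowest in 8 of the 10 panels, and Vim stays within 0.127 log2 units over all arrays.

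Dpt encodes dermatopontin, a small matrix protein that binds decorin and collagen. It read 7.47, 7.14 and 7.11 in the Pint ASO arrays, against 8.55 and 8.52 in the control ASO arrays. The 2 groups were far apart, and Dpt fell by 1.29 (SE 0.10, adjusted p = 6.06e-05) to 40.9% of the control level. In the siRNA arm Dpt read 9.06, 9.07 and 9.15 with p53 siRNA, against 9.39, 9.24 and 9.37 with control siRNA. These groups did not overlap either, but the difference of -0.24 (SE 0.09) had an adjusted p of 0.114 and was not called. That p was 0.0393 when each arm was fitted alone, and 0.0185 without Pint ASO array 1, the array that stands above the other two in Dpt.

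Pdgfra encodes the PDGF alpha receptor. It read 12.30, 12.15 and 12.21 in the p53 siRNA arrays, against 11.72, 11.74 and 11.76 in the control siRNA arrays. The groups were well separated, and Pdgfra was 1.40-fold higher with p53 siRNA (log2 change 0.48, SE 0.05, adjusted p = 9.51e-05). With Pint ASO it read 11.49, 11.53 and 11.49, against 11.71 and 11.72 with control ASO. The groups were apart by less than in the siRNA arm, and Pdgfra fell by 0.21 (SE 0.05, adjusted p = 0.0177). This call was lost when each arm was fitted alone (adjusted p = 0.0995), without control ASO array 1 (0.0693) or 2 (0.0798), and without Pint ASO array 1 (0.0510). It was also lost under several of the replicate blocks described in the last section.

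Pdgfrb encodes the PDGF beta receptor, the form typical of pericytes and fibroblasts. In the p53 siRNA arrays it read 12.46, 12.37 and 12.39, against 11.88, 11.90 and 11.92 in the control siRNA arrays. It was 1.42-fold higher (log2 change 0.50, SE 0.05, adjusted p = 9.32e-05). In the Pint ASO arrays it read 11.29, 11.40 and 11.39, against 11.81 and 11.89 in the control ASO arrays. Pdgfrb thus moved by like amounts up in one arm and down in the other, and fell by 0.49 after Pint knockdown (SE 0.05, adjusted p = 0.000320). Both calls held in every alternative tried.

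Cd34 encodes a sialomucin of the cell surface, found on stromal progenitors as well as on blood and vessel progenitors. It was the only member called lower in both arms, while Dpt was called with Pint ASO alone and lay below its control in both. It read 11.39, 11.41 and 11.44 with p53 siRNA, against 11.86, 11.78 and 11.79 with control siRNA, and fell by 0.39 (SE 0.04, adjusted p = 0.000176). It read 11.47, 11.51 and 11.44 with Pint ASO, against 12.07 and 12.09 with control ASO, and fell by 0.61 (SE 0.05, adjusted p = 5.06e-05). Neither pair of groups overlapped, and both calls held in every alternative tried. The control levels of Cd34 differed from each other, as described below.

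Thy1 encodes a glycoprotein anchored to the outer face of the membrane. It read 11.29, 11.25 and 11.47 in the Pint ASO arrays, against 11.66 and 11.81 in the control ASO arrays, and fell by 0.40 (SE 0.07, adjusted p = 0.00453). The spread within both groups was wide for this gene, and the call was lost when the ASO arm was fitted alone (adjusted p = 0.0719). With p53 siRNA, Thy1 read 12.12, 12.09 and 12.12, against 11.95, 11.94 and 12.01 with control siRNA. The groups did not overlap, and the difference of 0.15 (95% confidence interval 0.00 to 0.30, adjusted p = 0.166) was not called.

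S100a4 encodes a calcium-binding protein also known as fibroblast-specific protein, though macrophages carry it too. It read 12.22, 12.38 and 12.40 with p53 siRNA, against 12.10, 11.91 and 12.06 with control siRNA, and was 1.24-fold higher (log2 change 0.31, SE 0.08, adjusted p = 0.0244). This was the weakest call of that arm. Leaving out control siRNA array 2 or 3 ended the call (adjusted p = 0.0834 and 0.0534), as did leaving out p53 siRNA array 2 or 3 (0.0816 and 0.0873). With Pint ASO, S100a4 read 11.40, 11.58 and 11.35, against 11.91 and 11.94 with control ASO. The groups were clearly apart, and S100a4 fell by 0.48 (SE 0.09, adjusted p = 0.00477).

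Of the transcription factors, Twist2 showed the largest change. It read 10.82, 10.91 and 10.72 in the Pint ASO arrays, against 11.50 and 11.38 in the control ASO arrays, and fell by 0.62 (SE 0.07, adjusted p = 0.000324) to 64.9% of the control level. With p53 siRNA it read 11.58, 11.71 and 11.68, against 11.67, 11.61 and 11.67 with control siRNA. Those groups overlapped fully, and the change of 0.00 had a 95% confidence interval of -0.13 to 0.14. Twist1, its close relative, read 9.46, 9.43 and 9.36 with Pint ASO, against 9.73 and 9.56 with control ASO. The Pint ASO arrays were the lower, but the 2 control arrays were apart from each other, and the difference of -0.23 (SE 0.07) had an adjusted p of 0.0615. It passed the threshold in some alternatives, such as the test over probe sets with 1 gene symbol only (adjusted p = 0.0354). With p53 siRNA, Twist1 read 9.83 to 9.92, against 9.71 to 9.91 with control siRNA, and the difference of 0.06 was not called (adjusted p = 0.608).

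Prrx1 was a small and tight case. It read 12.66, 12.63 and 12.59 with Pint ASO, against 12.89 and 12.90 with control ASO, and fell by 0.27 (SE 0.04, adjusted p = 0.00253) to 82.9% of the control level. The gap between these groups was several times the spread within either, but the call was lost when the ASO arm was fitted alone (adjusted p = 0.0629). With p53 siRNA it read 13.06, 13.08 and 13.04, against 12.95, 12.93 and 12.99 with control siRNA. These arrays did not overlap, and the difference of 0.10 (SE 0.04, adjusted p = 0.111) was not called.

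Vim gave the narrowest range of the set. It read 14.26, 14.32 and 14.26 with Pint ASO, against 14.29 and 14.28 with control ASO, and the difference of -0.00 had a 95% confidence interval of -0.10 to 0.10. With p53 siRNA it read 14.19, 14.23 and 14.25, against 14.31, 14.26 and 14.28 with control siRNA, with a difference of -0.06 (95% confidence interval -0.15 to 0.03, adjusted p = 0.398).

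**Figure D2:**
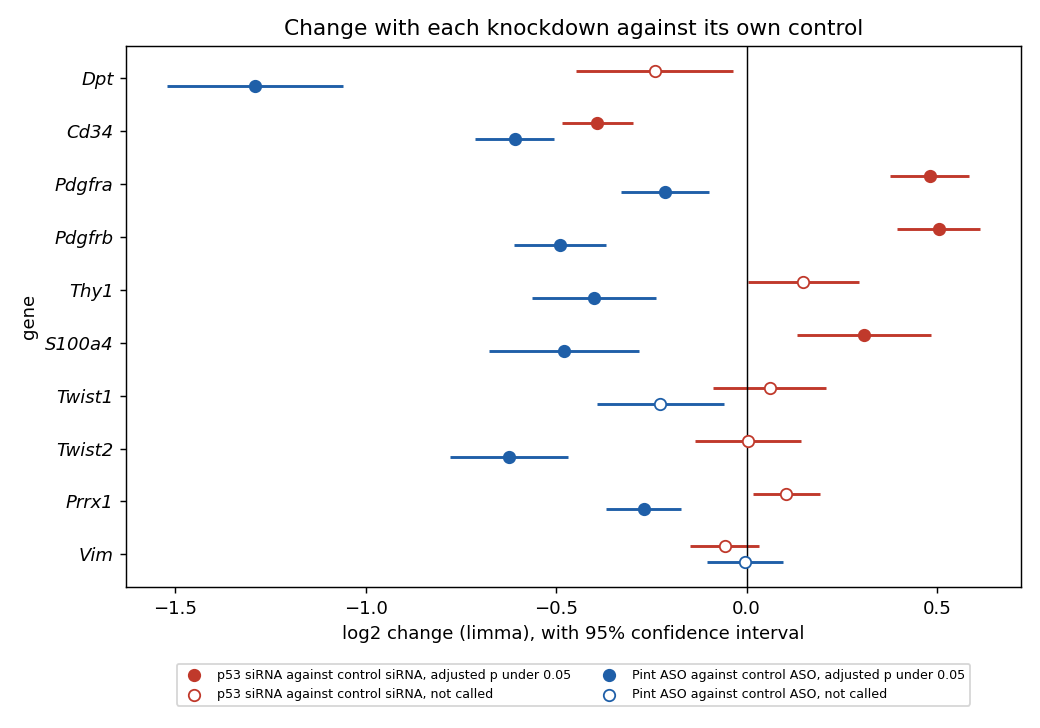
Log2 change of each gene (horizontal axis) with p53 siRNA against control siRNA (red) and with Pint ASO against control ASO (blue), with 95% confidence intervals from limma; filled points have an adjusted p under 0.05. Pdgfra, Pdgfrb and S100a4 lie right of 0 in red and left of it in blue, while Cd34 lies left of 0 in both.

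Whether the 2 knockdowns differed was tested as the Pint effect minus the p53 effect. The difference was called for 8 of the 10 genes, all in the negative direction, where 9.4% of all probe sets were called lower and 9.15% higher. Among the named probe sets at least as bright as Dpt these shares were 16.7% and 17.1%. The difference was -0.99 for Pdgfrb (SE 0.07, adjusted p = 2.66e-05), -0.79 for S100a4 (SE 0.12, 0.00148) and -0.70 for Pdgfra (SE 0.07, 0.000142), the 3 genes called in opposite directions. Among genes called only after Pint knockdown, it was -1.05 for Dpt (SE 0.14, adjusted p = 0.000688), -0.63 for Twist2 (SE 0.09, 0.00138), -0.55 for Thy1 (SE 0.10, 0.00377) and -0.37 for Prrx1 (SE 0.06, 0.00200). For Cd34, lower in both arms, the difference of -0.22 (SE 0.06) had an adjusted p of 0.0386. Leaving out any of 9 arrays ended that call, namely control siRNA 2 or 3, p53 siRNA 1, 2 or 3, control ASO 1 or 2, and Pint ASO 1 or 3 (adjusted p between 0.0545 and 0.105). The call was also lost with no filter on low values (adjusted p = 0.0623) and with each array centred on its median (0.0532). With B over 3 the difference was called for 2 genes, Pdgfra and Pdgfrb, and for 3.61% of probe sets. Twist1 differed by -0.29 (adjusted p = 0.0772) and Vim by 0.05 (0.639), neither called.

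The control groups differ in the oligonucleotide they received, and their levels were compared in the same fit, where 1.73% of probe sets were lower and 2.29% higher with control ASO. These shares were 3.22% and 3.75% among the named probe sets at least as bright as Dpt. Dpt was lower with control ASO than with control siRNA by 0.80 on the log2 scale (SE 0.10, adjusted p = 0.00419), and no array of one group overlapped the other. It was the 1 member with B over 3, as were 0.595% of probe sets. Cd34 was higher with control ASO by 0.27 (SE 0.05, adjusted p = 0.0141), but not once control siRNA array 3 (adjusted p = 0.0591) or control ASO array 1 or 2 (0.0769 and 0.0638) had been left out. The other 8 genes were not called, with differences from -0.23 (Thy1) to 0.00 (Vim). Lncpint itself was higher with control ASO by 0.71 (SE 0.12, adjusted p = 0.0137). Part of the distance between Pint ASO and control siRNA arrays in Dpt thus lay between the controls, and the test above sets each knockdown against its own control only.

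**Figure D3:**
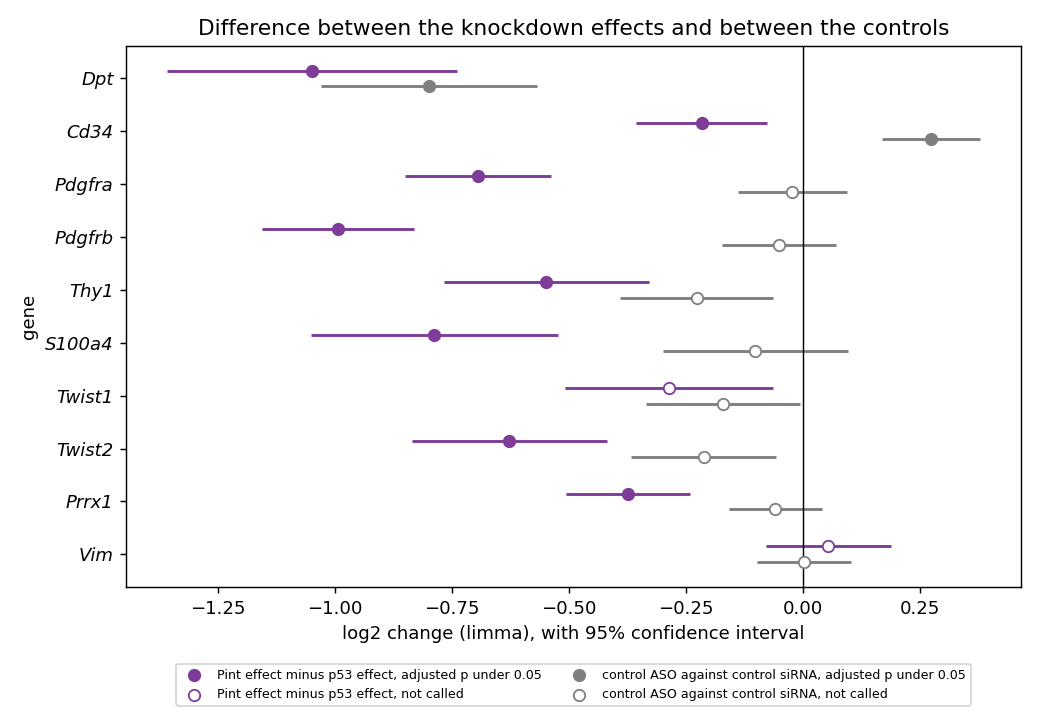
Log2 difference of each gene (horizontal axis) for the Pint effect minus the p53 effect (purple) and for control ASO against control siRNA (grey), with 95% confidence intervals from limma; filled points have an adjusted p under 0.05. The purple points of 8 genes are filled and lie below 0, and in grey only Dpt (-0.80) and Cd34 (0.27) are filled.

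Across the 11 arrays most of the genes varied together. Cd34 and Vim did not, and were set aside by name, with no clustering run. The choice was made on these same arrays, so the high r among the rest follows in part from it. Over all 45 pairs r lay between -0.725 and 0.976, with a median of 0.851. The 28 pairs among the 8 genes other than Cd34 and Vim had Pearson r between 0.662 and 0.976, with a median of 0.927. The highest were Dpt with Twist2 (0.976) and Pdgfra with Pdgfrb (0.968), and the lowest was Dpt with Pdgfra (0.662). Cd34 had r between -0.310 and 0.533 with the other 9 genes, and Vim between -0.725 and 0.533. The arrays share their groups, and after subtraction of group means the median r of the 28 pairs was -0.0586, so the high values describe group means more than single arrays. The highest of these within-group values among the 28 pairs were S100a4 with Twist2 (0.753), Pdgfra with Pdgfrb (0.727) and Twist1 with Twist2 (0.703). The lowest were Thy1 with Twist2 (-0.770) and Dpt with Pdgfrb (-0.695). Over all 45 pairs the highest within-group values were S100a4 with Vim (0.911), Cd34 with Vim (0.873) and Cd34 with S100a4 (0.809).

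For the members called in both arms, the other named genes with the most like pattern over the 11 arrays were also looked up. Pdgfrb was followed most closely by Actn3 (r = 0.997) and Scara3 (0.996), Pdgfra by Ifitm1 (0.991) and Slc29a1 (0.991), and S100a4 by Dhrs7 (0.994) and Stac2 (0.991). All of these had changes above 0 with p53 siRNA and below 0 with Pint ASO. Cd34 was followed by Il7 (r = 0.976) and Ccdc3 (0.971), both with changes below 0 in either arm. These are the top values among all named genes tested and are given as descriptions over 11 arrays that share groups.

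The PDGF receptors belong to a pathway whose other genes moved in both directions. Of 18 genes for PDGF ligands and signalling, all tested, 2 (11.1%) were higher and 4 (22.2%) lower with p53 siRNA, beside 7.97% and 8.96% of all probe sets. With Pint ASO 4 (22.2%) were higher and 6 (33.3%) lower, beside 8.49% and 10.7%. Among named probe sets at least as bright as Dpt, 13.2% were called higher and 15.4% lower with p53 siRNA. With Pint ASO those shares were 16% and 20%. They are the nearer comparison for the brighter genes of this list and of the lists that follow. Pdgfrl, a receptor-like protein, and Plat, the tissue plasminogen activator that cleaves latent PDGF-CC, moved in the directions of both receptors. Pdgfrl rose by 0.72 with p53 siRNA (SE 0.08, adjusted p = 0.000190) and fell by 0.94 with Pint ASO (SE 0.09, 0.000127). Plat rose by 0.58 with p53 siRNA (SE 0.06, adjusted p = 0.000209) and fell by 1.02 with Pint ASO (SE 0.07, 3.41e-05). It was also lower with control ASO than with control siRNA, by 0.38 (limma adjusted p = 0.0194). Of the ligands, Pdgfa fell by 0.63 with p53 siRNA, and with Pint ASO Pdgfd fell by 0.56 and Pdgfb rose by 0.44. The signalling genes Src, Rasa1 and Cbl fell by 0.26, 0.34 and 0.24 with p53 siRNA, and rose by 0.31, 0.24 and 0.28 with Pint ASO. The median change of the list was -0.01 with p53 siRNA and -0.02 with Pint ASO.

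Other surface proteins of mesenchymal cells also moved in both directions. Of 22 genes, 21 had a probe set and were tested, with 4 (19%) higher and 5 (23.8%) lower after p53 knockdown, beside 7.97% and 8.96% of all probe sets. After Pint knockdown 1 (4.76%) was higher and 7 (33.3%) were lower, beside 8.49% and 10.7%. Itga11, a collagen-binding integrin chain, rose by 0.77 with p53 siRNA and fell by 0.59 with Pint ASO. Mme, the peptidase CD10, rose by 0.59 with p53 siRNA and fell by 1.06 with Pint ASO. Vcam1, an adhesion molecule, rose by 0.44 with p53 siRNA and fell by 0.37 with Pint ASO. Cd248, or endosialin, rose by 0.28 with p53 siRNA and fell by 0.73 with Pint ASO. On the other side Nt5e (CD73), Procr, the protein C receptor, and Alcam fell by 0.69, 0.61 and 0.46 with p53 siRNA, while their changes with Pint ASO were -0.01, 0.08 and 0.01 and were not called. Ncam1, an adhesion molecule, was the 1 gene higher with Pint ASO, by 0.27. It was lower with control ASO than with control siRNA, by 0.37 (limma adjusted p = 0.00876). The list's median change was 0.10 with p53 siRNA and -0.01 with Pint ASO.

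Other transcription factors of mesenchyme, like the surface proteins, were called in both directions. Of 36 genes, 34 had a probe set and were tested, and 13 (38.2%) were higher and 4 (11.8%) lower with p53 siRNA, beside 7.97% and 8.96% of all probe sets. With Pint ASO 5 (14.7%) were higher and 9 (26.5%) lower, beside 8.49% and 10.7%. The homeobox genes Meox2, Meox1 and Alx1 rose most with p53 siRNA, by 0.63, 0.47 and 0.34, and Tbx20, Hic1 and Foxc2 fell by 0.61, 0.53 and 0.34. Hic1 and Foxc2 were called higher with Pint ASO, by 0.20 and 0.33. With Pint ASO Tbx5, a limb and heart T-box factor, Prrx2, the paralogue of Prrx1, and Gli2, an effector of Hedgehog signalling, fell by 0.48, 0.40 and 0.34. Prrx2 was called higher with p53 siRNA, by 0.16. Foxf1, Runx1 and Foxf2 rose with Pint ASO, by 0.42, 0.41 and 0.40. The second probe set of Foxf1 differed by 0.21 and was not called (adjusted p = 0.184). The list's median change was 0.13 with p53 siRNA and -0.06 with Pint ASO.

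Of the partners of the Twist proteins, 1 was called in each arm. Of 11 E-proteins, Id inhibitors and related factors, 1 (9.09%, beside 7.97% of all probe sets) was higher and 0 lower with p53 siRNA, namely the E-protein gene Tcf3 (0.15, SE 0.04, adjusted p = 0.0268). With Pint ASO 1 (9.09%, beside 10.7% of all) was lower and 0 were higher, namely the E-protein gene Tcf4 (-0.37, SE 0.05, adjusted p = 0.000911). Among 10 intermediate filament and lamin genes, Des (desmin) and Synm (synemin) fell by 0.87 and 0.71 with p53 siRNA, and Lmnb1 (lamin B1) rose by 0.58. The p53 siRNA calls were 10% higher and 20% lower, beside 7.97% and 8.96% of all. With Pint ASO 4 of these 10 (40%, beside 10.7%) fell, led by Sync (-0.44), Des (-0.35) and Lmna (-0.30), and 0 rose. Of 15 other S100 genes 13 were tested, and 0 were called with p53 siRNA. With Pint ASO S100a1 and S100a16 (15.4%, beside 10.7%) fell by 0.55 and 0.34 and S100a7a (7.69%, beside 8.49%) rose by 0.37.

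**Figure D4:**
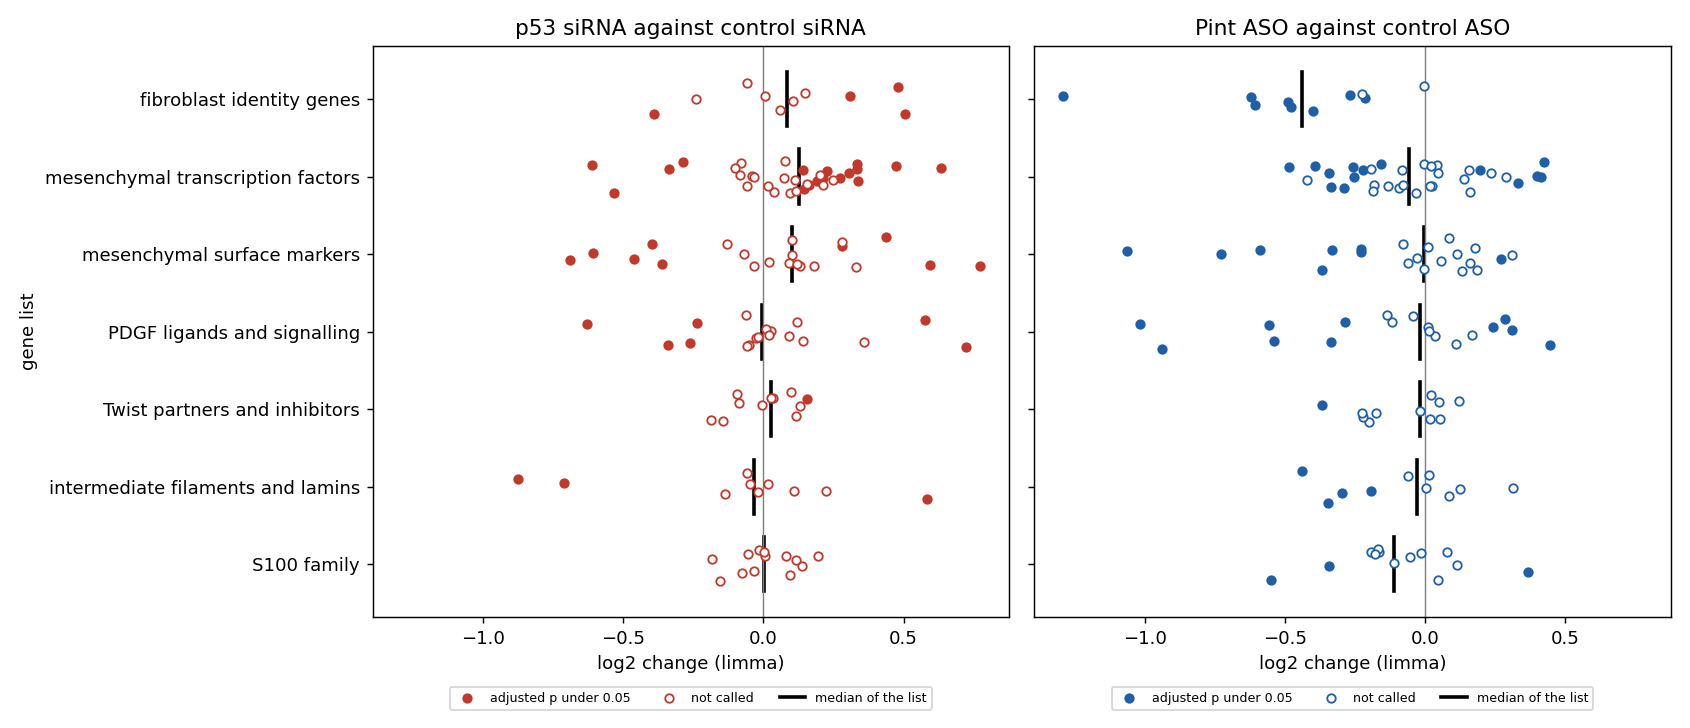
Log2 change of each tested gene (points, horizontal axis) in the set of 10 and in 6 related gene lists, with p53 siRNA against control siRNA (left) and Pint ASO against control ASO (right); filled points have an adjusted p under 0.05, vertical bars are list medians, and the height of a point within its row has no meaning. The median of the 10 genes is -0.44 on the right, where the other lists have medians from -0.11 (S100 family) to -0.01.

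Markers of other cell classes were called no more often than probe sets in general. With Pint ASO 2 of the 38 markers tested (5.26%) were higher and 4 (10.5%) lower, beside 8.49% and 10.7% of all probe sets. With p53 siRNA 2 (5.26%) were higher and 2 (5.26%) lower, beside 7.97% and 8.96%. The 7 smooth muscle and pericyte markers summed to a linear signal of 24634 to 25268 in the Pint ASO arrays, against 27238 to 28051 in the control ASO arrays. In the siRNA arm they summed to 29692 to 30917 with p53 siRNA, against 29181 to 30766 with control siRNA. Rgs5, a pericyte marker, fell by 1.28 with p53 siRNA (SE 0.08, adjusted p = 7.08e-06) and by 0.49 with Pint ASO (SE 0.09, 0.00403), while Cnn1 (calponin) rose by 0.30 with p53 siRNA and fell by 0.40 with Pint ASO. Acta2, Myh11, Tagln, Kcnj8 and Abcc9 were not called in either arm. Epithelial markers summed to 1167 to 1280 with Pint ASO, against 1292 to 1387 with control ASO, and Cdh1 fell by 0.68. Cdh1 was also lower with control ASO than with control siRNA, by 0.40 (limma adjusted p = 0.0136). Endothelial markers summed to 779 to 798 with Pint ASO, against 634 to 693 with control ASO, where Kdr rose by 0.77 and Tek fell by 0.17, while Pecam1, Cdh5 and Cldn5 were not called. Krt18 fell by 0.20 and Pparg rose by 0.21 with p53 siRNA, and Nefl rose by 0.31 with Pint ASO. The part of these markers in the changes of the 10 genes was not tested.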

How the data were processed

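Labelled cDNA from 300 ng of total RNA was made with whole-transcript kits and hybridised to Affymetrix mouse arrays. The main and supplementary methods name different array models. The deposited values are log2 intensities that the authors made with RMA, whose version is not given in the sources used here, in 34760 probe sets. Probe sets were named from the platform annotation. Testing required log2 values above 6 (a linear 64) in 2 or more arrays of any 1 group. One model over the 4 groups was fitted in limma 3.58.1 (R 4.3.3; group means, empirical Bayes without trend), with Benjamini-Hochberg adjustment over 26038 probe sets, and an adjusted p under 0.05 was a call. Other filters, normalizations, fits and thresholds and the omission of single arrays were tried as alternatives. The script was tested on simulated data.

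Named genes are all members, up to 3 called genes per direction and arm of each related list, marker genes, and the 2 genes most like each member called in both arms. The members and lists were chosen with earlier results of these data known. Since no label says that replicates came from separate cultures, p-values reflect only the spread among these arrays, which may be technical. The number of arrays limits the precision.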

Additional observations from a re-analysis of the deposited data

Results flagged for a closer look

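For 8 of the 10 genes the effect of Pint knockdown differed from that of p53 knockdown in a direct test, all negative. Of all probe sets 9.4% were called lower and 9.15% higher. Among named ones at least as bright as Dpt these shares were 16.7% and 17.1%. With B over 3 the difference was called for 2 of the 10 genes, beside 3.61% of probe sets. The Pint effect minus the p53 effect was -1.05 for Dpt, -0.99 for Pdgfrb, -0.79 for S100a4, -0.70 for Pdgfra, -0.63 for Twist2, -0.55 for Thy1, -0.37 for Prrx1 and -0.22 for Cd34 on the log2 scale. The Cd34 difference lost its call in many alternatives. The arms differ in their oligonucleotide chemistry as well as in their target, which cannot be told apart from the difference between targets. No group held enough arrays for a search for single outlying arrays.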

How the results depend on the processing

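Each comparison was repeated under other filters, normalizations, fits and thresholds and with each of the 11 arrays left out. Of 960 single-gene values under an alternative, 895 kept their side of the threshold, 53 lost the call, 12 gained it and 0 called values changed sign. The calls of Cd34, Pdgfra and Pdgfrb with p53 siRNA, and of Dpt, Cd34, Pdgfrb and Twist2 with Pint ASO, held in every alternative. With B over 3, members lower with Pint ASO fell to 4 and in the difference to 2, members higher with control ASO fell to 0, and probe sets called were 1021 with p53 siRNA, 812 with Pint ASO, 941 for the difference and 155 for the controls. With each arm fitted alone, 2 members were lower with p53 siRNA and 5 with Pint ASO, where 1890 probe sets were called.

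Same-numbered siRNA arrays did not deviate together (r = -0.284, -0.181 and -0.0371). In the ASO arm r was below 0 by title number (-0.0463 and -0.420) and above 0 by description number (0.420 and 0.375). With 2 control ASO arrays, the deviations from their mean are equal and opposite. Both -0.420 and 0.420 use Pint ASO array 2, so they are not separate observations. The main fit used no pairs, and blocks by either number were fitted as alternatives. Whether ASO arrays with the same description number shared a culture was not tested. With a replicate block shared over both arms, by title and then by description number, members higher with control ASO fell to 0 in both cases, with 371 and 465 probe sets called there, and S100a4 lost its call with p53 siRNA in both. Pdgfra lost its call with Pint ASO under the shared title block (adjusted p = 0.0620), and the Cd34 difference between the knockdowns lost its call under both shared blocks (0.111 by title, 0.0869 by description) and under both within-arm blocks below (0.258 and 0.171). A replicate block by title number within each arm, chosen after seeing the data, left 2285 probe sets called with p53 siRNA, 1311 with Pint ASO and 1927 for the difference, and 5 members lower with Pint ASO. The block by description number within each arm, also chosen later, gave 2604 for Pint ASO and 3058 for the difference, and 2 members lower with p53 siRNA. S100a4 lost its call in both arms under either of these within-arm blocks. Pdgfra lost its call with Pint ASO under both (limma adjusted p = 0.177 by title, 0.120 by description). Prrx1 lost its call with Pint ASO by title (0.102), as did its difference between the knockdowns (0.0740).

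Without 1 array at a time, members higher with p53 siRNA were 2 to 3 and members lower 1 to 2, with 3196 to 4454 probe sets called. Members lower with Pint ASO were 7 to 8 (3403 to 4716 probe sets), and in the difference 7 to 8 (3755 to 4558). For the controls, members higher were 0 to 1, members lower 1, and probe sets called 302 to 982. Another scaling moved the median of all probe sets by under 0.03, and quantile normalization applied again gave 2606 probe sets higher and 2611 lower with Pint ASO. The control ASO group has 2 arrays, and leaving out 1 assumes that the other varies like the rest.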
